A study of Mus musculus with 24 samples.

Results

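Colony-stimulating factors are the growth factors of the myeloid lineage, and the account that follows describes their 4 ligand genes and 5 receptor genes in sorted bone marrow stromal cultures. The 9 genes were taken by symbol: the ligands Csf1, Il34, Csf2 and Csf3, and the receptor chains Csf1r, Csf2ra, Csf2rb, Csf2rb2 and Csf3r. They are 9 of the 54232 genes in the count tables, of which 31499 had at least 1 count in the series.

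CSF1 and interleukin-34 share 1 receptor, the tyrosine kinase CSF1R, on which macrophages and osteoclasts depend for survival and growth. Stromal and osteoblast-lineage cells of the marrow are a known source of CSF1, so ligand and receptor sit on different cells. GM-CSF, encoded by Csf2, signals through an alpha chain and a beta chain that the receptors of interleukin-3 and interleukin-5 also use, and G-CSF, encoded by Csf3, acts through CSF3R on neutrophils and their precursors.

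Groups were formed by genotype and sorted population, with 6 libraries each and 24 in all. Knock-in mice carried the Sh3bp2KI/KI genotype, a knock-in allele on both copies of the adaptor gene Sh3bp2, and the series labels their cells as cherubism, a jaw disease with many osteoclast-like cells. Wild type mice were the comparison, and all mice were female C57BL/6 animals of 6 to 8 weeks. Bone marrow was cultured for 7 days in MEM-alpha medium supplemented with 10% FBS and 1% Penstrep, with no added factor named in the labels. Cells were then sorted into a mesenchymal population, CD45-Sca1+, and a hematopoietic population, CD45+Sca1+. The labels do not say whether a library is 1 mouse or a pool, so p-values measure the spread between these libraries, which may be technical.

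Library totals ranged from 9875390 to 15826711 counts. The deposited file names split each group into 2 sets of 3 libraries, and no label says what the sets are. Levels are given as CPM, counts scaled by library size with TMM factors over the 24 libraries, and as CPM per kilobase of exon where genes are compared with each other. Ptprc, which encodes CD45, ran from 0.790 to 5.92 CPM in knock-in mesenchymal and from 0.857 to 4.802 CPM in wild type mesenchymal libraries, against 672 to 872 CPM in knock-in hematopoietic and 671 to 870 CPM in wild type hematopoietic libraries. Ly6a, which encodes Sca1, had group medians of 9.57 to 11.1 CPM, so it did not separate the populations, and the gate takes Sca1+ cells in both. In hematopoietic libraries of both genotypes 13 of 14 macrophage markers averaged at least 1 CPM, Itgam being the exception, and T and NK cell markers summed to at most 1.16 CPM there. Sh3bp2 itself ranged from 185 to 285 CPM in knock-in and from 162 to 234 CPM in wild type hematopoietic libraries. Gene counts do not read the altered allele, so they do not check the genotype labels.

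Markers of the other population were detected in both sorts. The median of listed markers was read wholly as RNA of the other population. For stromal RNA 16 markers entered for knock-in and 18 for wild type libraries, each against the mesenchymal mean of its own genotype. This put stromal RNA at 10.8% ± 6.24 of knock-in and 10.9% ± 5.33 of wild type hematopoietic libraries (SD, n = 6 each), with a two-sided exact permutation p of 0.968. In the same way leukocyte RNA was put at 0.509% ± 0.331 of knock-in and 0.412% ± 0.174 of wild type mesenchymal libraries (SD, n = 6 each), with a two-sided exact permutation p of 0.545. Multiplying these shares by the other population's mean level gives a carry-over level, which is set beside each low value below. Low expression of those markers by the sorted cells themselves was not told apart from carried-over RNA, so the shares and levels are estimates.

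The 2 ligands that could be tested, Csf1 and Il34, and the 5 receptor chains had their higher means on opposite sides of the sort. In knock-in cultures the Il34 values of the populations overlapped. Of the 7 members that could be tested, all 7 differed between mesenchymal and hematopoietic libraries in knock-in and all 7 in wild type cultures, 2 ligands higher and 5 receptor chains lower in mesenchymal cells. Most genes differ between these populations: edgeR's quasi-likelihood test called 73% of 15389 tested genes in knock-in cultures (33.9% higher, 39.1% lower) and 73.5% in wild type cultures (35.4% higher, 38% lower). Against that background the count of members called sets them little apart. The receptor chains were 14.5-fold to 228-fold lower in mesenchymal than in hematopoietic libraries of knock-in cultures, and 13.7-fold to 294-fold lower in those of wild type cultures. With the carry-over level subtracted, their log2 differences ran from -10.30 to -4.04 in knock-in and from -11.96 to -3.94 in wild type cultures, fitted values that depend on how libraries left at or near 0 are treated. In bulk RNA such as this, fewer cells of a type and less RNA per cell cannot be told apart. The median log2 difference over all tested genes was -0.07 in knock-in and -0.03 in wild type cultures.

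**Figure D1:**
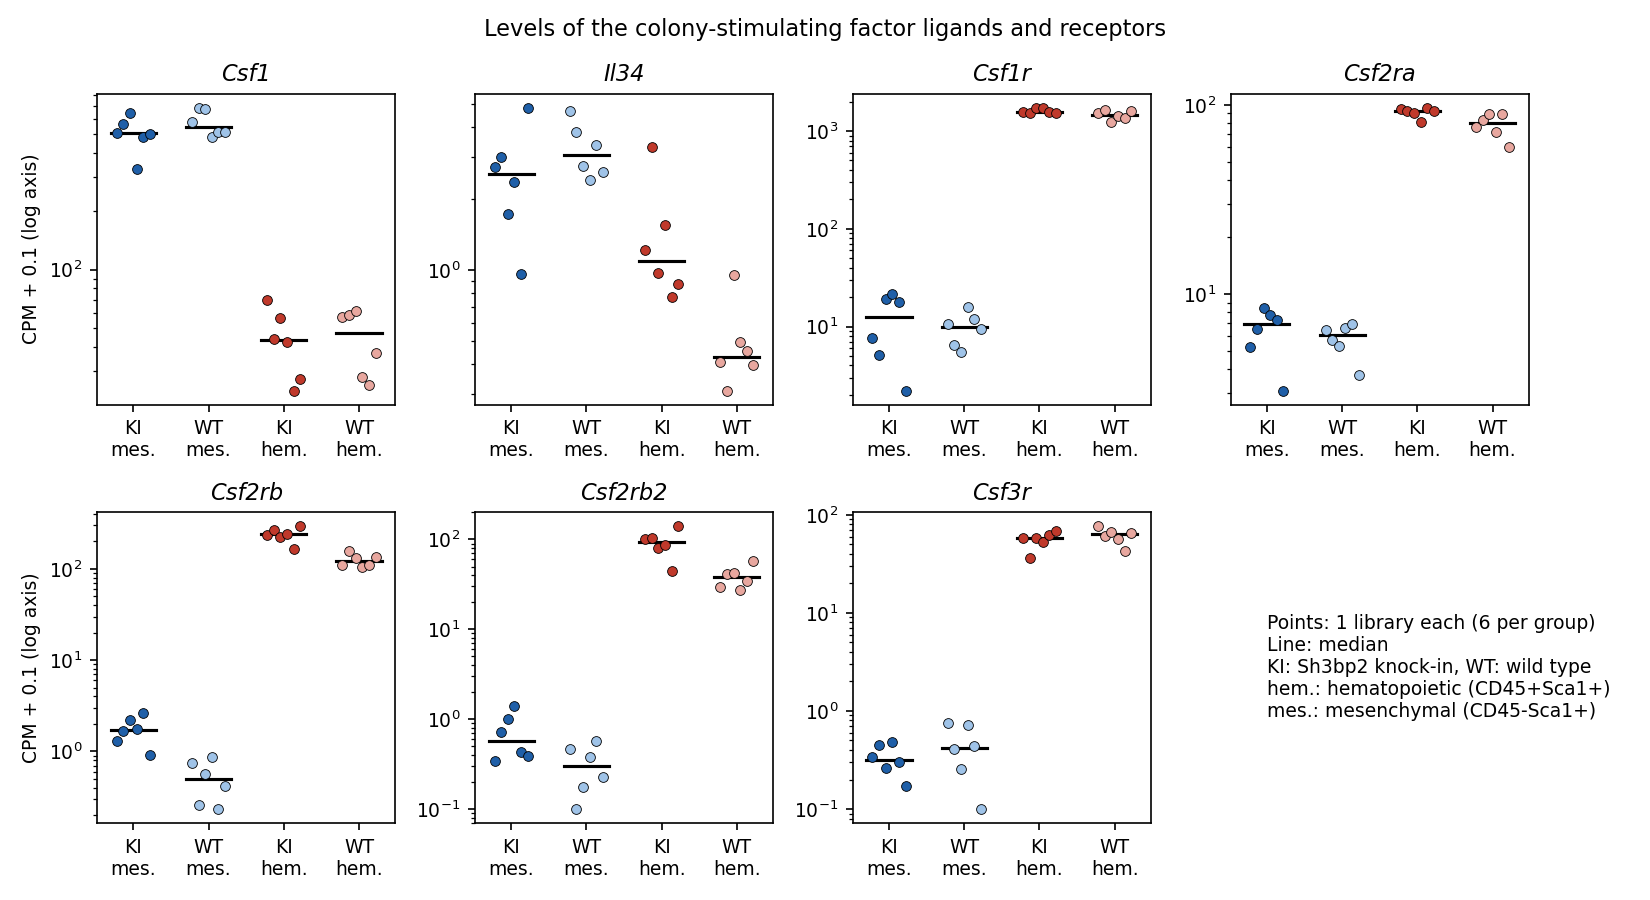
CPM of the 7 detected members in each library on a log axis, with 0.1 added so that 0 can be drawn, for knock-in (KI) and wild type (WT) groups of 6 libraries, mesenchymal and then hematopoietic, with a line at each median. Csf1 and Il34 have their higher medians in mesenchymal libraries and the 5 receptor chains in hematopoietic libraries, and only Csf2rb has no overlap of genotypes in both populations.

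Csf1 was the most abundant ligand, and it differed by population and not detectably by genotype. It is ENSMUSG00000014599, at chr3:107741048-107760469 on the minus strand of GRCm38. In mesenchymal libraries it ran from 330 to 640 CPM in knock-in cells, with a median of 505, and from 483 to 686 CPM in wild type cells, with a median of 546. In hematopoietic libraries it ran from 23.7 to 69.7 CPM in knock-in cells (median 43.1) and from 25.4 to 61.0 CPM in wild type cells (median 47.0). All 6 mesenchymal libraries of each genotype stood above all 6 of its hematopoietic libraries, and such a separation, in either direction, was shown by 51.3% of genes in knock-in and 51.7% in wild type cultures. Csf1 was 11.9-fold higher in mesenchymal than hematopoietic cells of knock-in cultures (log2 3.58, SE 0.17, edgeR adjusted p = 7e-15) and 13.5-fold higher in those of wild type cultures (log2 3.76, SE 0.17, edgeR adjusted p = 3.06e-15). With the carry-over level subtracted and libraries below it set to 0, the log2 difference was 6.82 in knock-in and 8.81 in wild type cultures.

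Between genotypes Csf1 did not pass the test in either population. In mesenchymal cells it averaged 505 ± 103 CPM in knock-in and 575 ± 87.7 CPM in wild type libraries (SD, n = 6 each), and its log2 fold change was -0.18 (95% interval -0.40 to 0.04, edgeR adjusted p = 0.326). In hematopoietic cells it averaged 43.9 ± 17.4 CPM in knock-in and 44.5 ± 16.2 CPM in wild type libraries (SD, n = 6 each), and its log2 fold change was 0.01 (95% interval -0.32 to 0.34, edgeR adjusted p = 0.975), and the sign of so small a value turns with the setting. The interval in mesenchymal cells leaves out a rise of more than 0.04 on the log2 scale. The estimated stromal share of hematopoietic libraries would by itself give a mean of 54.4 CPM in knock-in and 62.4 CPM in wild type libraries. The observed Csf1 level was above that carry-over level in 3 of 6 knock-in and 2 of 6 wild type libraries. In replicate 3 of both genotypes it was well under it, at 56.5 CPM against 114 CPM in knock-in and 61.0 CPM against 119 CPM in wild type cells, so the estimate was too high there for Csf1.

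Il34 (ENSMUSG00000031750, chr8:110741829-110805924, minus strand) was the other CSF1R ligand detected, at a level far below Csf1. In mesenchymal libraries it ran from 0.861 to 4.74 CPM in knock-in cells (median 2.44) and from 2.30 to 4.58 CPM in wild type cells (median 2.96). The mesenchymal groups overlapped, and their difference did not pass the test (log2 fold change -0.32, SE 0.34, edgeR adjusted p = 0.626). Per kilobase of exon, Csf1 averaged 95.6 in knock-in and 109 in wild type mesenchymal libraries, against 1.28 for Il34 in knock-in and 1.62 in wild type mesenchymal libraries. The exons of Il34 overlap those of Gm15894 (over 22 bases) and Gm15895 on the opposite strand, and Gm15894 had 17 counts in the series.

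In hematopoietic cells Il34 rose in the knock-in. The 6 knock-in libraries had 13, 44, 10, 22, 9 and 10 counts (replicates 1 to 6), which is 1.12, 3.21, 0.872, 1.45, 0.666 and 0.771 CPM. The 6 wild type libraries had 3, 3, 9, 6, 5 and 4 counts, which is 0.309, 0.211, 0.851, 0.396, 0.355 and 0.298 CPM. Knock-in libraries 1 to 4 stood above every wild type library, while knock-in libraries 5 and 6 lay below wild type library 3, so the groups overlapped. The fold change was 3.31 (log2 1.73, SE 0.45, edgeR adjusted p = 0.0195, 6 of 6 knock-in libraries above the wild type mean). Leaving out knock-in replicate 2, the highest, gave 1.32 with an adjusted p of 0.0507, and leaving out knock-in replicate 4 gave 1.59 with 0.052. Within a single set of file names, 3 libraries of each group, Il34 was too low in hematopoietic cells to be tested. The filter scales its minimum count of 10 by library size. Most wild type libraries lay under it, so Il34 entered the test mainly through its knock-in libraries.

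Carry-over bears on Il34 as well, because mesenchymal cells have more of it. Stromal RNA would give a mean of 0.269 CPM in knock-in and 0.344 CPM in wild type hematopoietic libraries. Observed Il34 was above that in 6 of 6 knock-in libraries, where it averaged 1.35 CPM, and in 5 of 6 wild type libraries, where it averaged 0.403 CPM. Il34 was 1.89-fold higher in mesenchymal than hematopoietic cells of knock-in cultures (log2 0.92, SE 0.38, edgeR adjusted p = 0.0325) and 7.78-fold higher in those of wild type cultures (log2 2.96, SE 0.43, edgeR adjusted p = 1.52e-06). With the carry-over level subtracted these log2 differences were 1.15 in knock-in and 5.08 in wild type cultures. The wild type value rests on hematopoietic libraries left at or near 0. The knock-in value without subtraction does not hold when only the knock-in libraries are fitted (log2 0.92, adjusted p = 0.0847), when the first file set is used alone (0.47, 0.453), or without any 1 of hematopoietic replicates 1, 3, 5 and 6 or mesenchymal replicate 6 (0.62 to 0.85, adjusted p 0.063 to 0.114).

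The genotype effect on Il34 differed between the populations. The interaction, mesenchymal effect minus hematopoietic effect, was -2.04 on the log2 scale (SE 0.57, edgeR adjusted p = 0.0289), and Il34 was the only 1 of 7 tested members to pass. Over all genes 7.28% passed the interaction, 2.92% higher and 4.36% lower. The value was -1.64 (adjusted p = 0.0696) without knock-in hematopoietic replicate 2 and -1.96 (0.056) without replicate 4. In the file sets alone it was -2.58 (0.169) and -1.49 (0.527). It was -1.96 (0.0544) without wild type hematopoietic replicate 1 and -1.86 (0.0608) without replicate 2. By DESeq2 it was -2.04 (0.00965). With the carry-over level subtracted it was -3.93 (0.00219). That value depends on how wild type hematopoietic libraries left at or near 0 are treated, since they averaged 0.403 CPM against a carry-over level of 0.344 CPM.

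As a share of the 2 CSF1R ligands per kilobase, Csf1 made up 92.1% ± 4.58 in knock-in and 97.4% ± 1.23 in wild type hematopoietic libraries (SD, n = 6 each). All 6 knock-in libraries, from 83.5% to 96.0%, lay below all 6 wild type libraries, from 96.3% to 99.0%. The difference was -5.30 percentage points (two-sided exact permutation p = 0.00216, the smallest that 924 splits can give, and 0.00649 adjusted over the 3 shares tested). Computed from counts and not per kilobase, the difference was -2.15 points with the same p. In mesenchymal libraries the share was 98.6% ± 0.733 in knock-in and 98.5% ± 0.373 in wild type cells (SD, n = 6 each), with a two-sided exact permutation p of 0.758. The hematopoietic shares rest on Csf1 values that are on average no larger than their carry-over level, and on 9 to 44 Il34 counts in knock-in and 3 to 9 in wild type libraries. Csf1 accounted for nearly all CSF1R ligand RNA in the stromal cells of both genotypes.

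Csf2 and Csf3 were not found at a level that could be compared. Csf2, whose exons overlap those of Gm12223 on the opposite strand over 96 bases, was listed at 0 in all 24 libraries, and Csf3 had 2 counts in all, 1 in a knock-in hematopoietic and 1 in a wild type mesenchymal library. At these depths 3 counts make 0.190 to 0.304 CPM in a library. Itgam and Irf8, a surface integrin and a transcription factor that macrophages are known to express, were also listed at 0 in all 24 libraries, so a listing at 0 was not read as absence of the transcript.

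Csf1r was the most abundant member in hematopoietic cells, at 279 CPM per kilobase in knock-in and 255 in wild type libraries, and no other member overlapped it there. It ran from 1528 to 1737 CPM in knock-in libraries (median 1572) and from 1235 to 1657 CPM in wild type libraries (median 1477). The groups overlapped, with 2 of 6 knock-in libraries above every wild type library. The log2 fold change was 0.14 (95% interval -0.05 to 0.34, edgeR adjusted p = 0.315), so a rise of more than 0.34 lies outside the interval. The exons of Csf1r overlap those of Hmgxb3 on the opposite strand over 873 bases. Hmgxb3 ranged from 45.3 to 68.6 CPM in the 24 libraries, a small level beside Csf1r in hematopoietic cells and a larger one beside it in mesenchymal cells, and the strand setting of the counting is not given in the sources used here.

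In mesenchymal libraries Csf1r ran from 2.11 to 21.5 CPM in knock-in cells (median 12.6) and from 5.44 to 15.7 CPM in wild type cells (median 9.82). Leukocyte RNA would give a mean of 8.19 CPM in knock-in and 6.06 CPM in wild type mesenchymal libraries, which is 67.7% of the knock-in and 61.8% of the wild type mean. The difference between genotypes did not pass the test (log2 fold change 0.34, SE 0.47, edgeR adjusted p = 0.728).

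**Figure D2:**
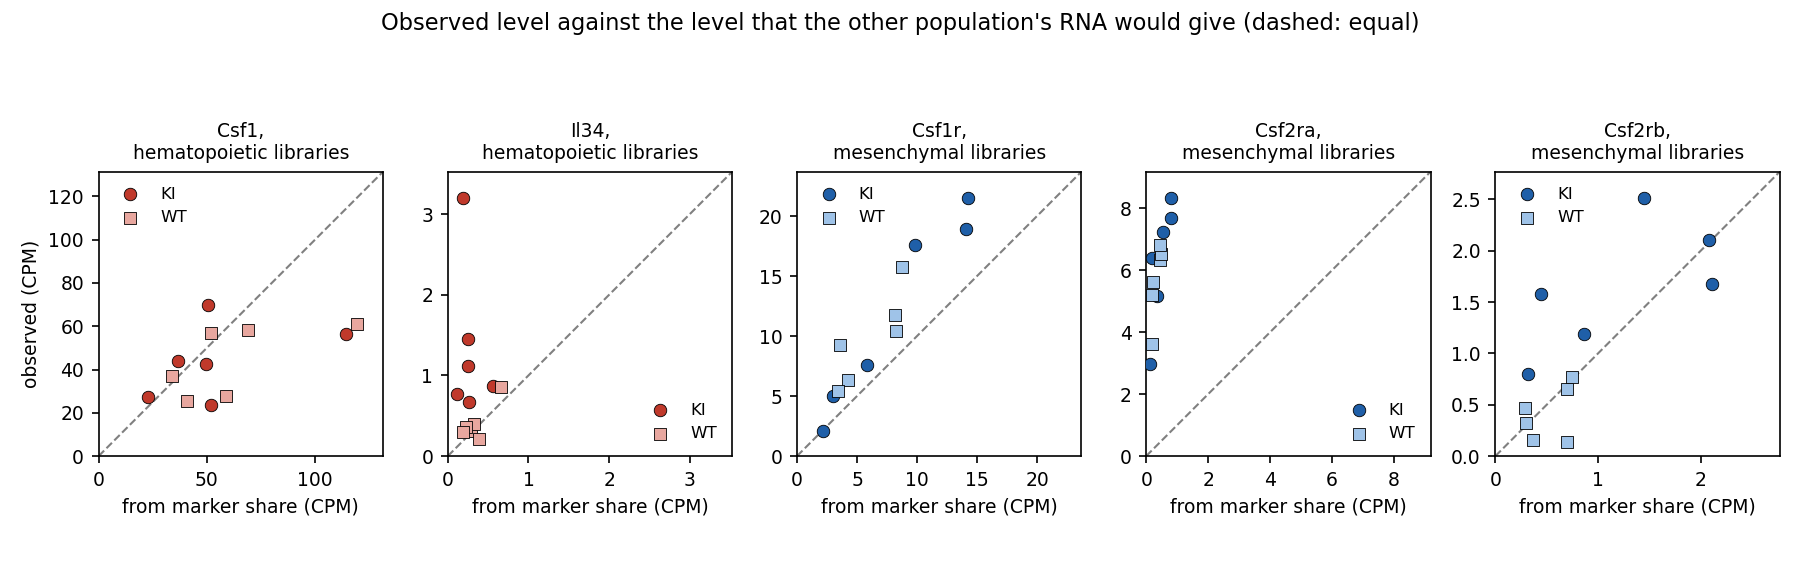
Observed CPM of 5 members (vertical axis) against the CPM that the estimated share of the other population's RNA would give (horizontal axis), for the population in which each member is low, 1 point per library, KI circles and WT squares. Csf1 in hematopoietic and Csf2rb in mesenchymal libraries lie around the dashed line of equality, while Csf2ra in mesenchymal libraries and Il34 in KI hematopoietic libraries lie above it.

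Csf2ra (ENSMUSG00000059326, chr19:61223957-61228429, minus strand) encodes the alpha chain that binds GM-CSF. In hematopoietic libraries it ran from 81.4 to 96.5 CPM in knock-in cells (median 92.7) and from 60.0 to 89.6 CPM in wild type cells (median 80.0). In knock-in cells 5 of 6 libraries stood above every wild type library, yet the difference was small and did not pass the test over all genes (log2 fold change 0.24, SE 0.09, edgeR adjusted p = 0.101). It passed by edgeR without wild type replicate 5 (0.32, adjusted p = 0.0271) and with a replicate block (0.25, adjusted p = 0.0456). No label says that replicate numbers pair libraries. In mesenchymal libraries it ran from 2.99 to 8.35 CPM in knock-in and from 3.63 to 6.82 CPM in wild type cells (log2 fold change 0.15, SE 0.24, edgeR adjusted p = 0.757).

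By fold, the alpha chain was the receptor gene least separated by the sort. Leukocyte RNA would give Csf2ra a mean of 0.466 CPM in knock-in and 0.323 CPM in wild type mesenchymal libraries. It averaged 6.30 ± 1.96 CPM in knock-in and 5.69 ± 1.17 CPM in wild type mesenchymal libraries (SD, n = 6 each). The observed level was 13.5 times the carry-over level in knock-in and 17.6 times in wild type mesenchymal cells, and above it in 12 of 12 libraries. Per kilobase it stood at 2.19 in knock-in and 1.98 in wild type mesenchymal libraries, beside 2.10 in knock-in and 1.70 in wild type libraries for Csf1r, and those neighbours overlapped.

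Csf2rb and Csf2rb2 encode the beta chains. In the mouse, Csf2rb makes the common chain of the GM-CSF, interleukin-3 and interleukin-5 receptors, and Csf2rb2 makes a further chain that serves interleukin-3 alone. The genes lie 20030 bases apart on chromosome 15 of GRCm38, Csf2rb at chr15:78325752-78353847 on the plus strand and Csf2rb2 at chr15:78282507-78305721 on the minus strand. Their coding sequences of 2688 and 2634 bases were 95.2% identical over 2628 aligned bases, which bears on how reads are assigned. Of all 75-base stretches of coding sequence, 15.8% of those of Csf2rb also occur in Csf2rb2 and 16.1% of those of Csf2rb2 also occur in Csf2rb, so a read lying wholly inside such a stretch matches both genes. How the counting treated such reads is not given in the sources used here. The pair below is the aligned 75-base stretch with the most differences, coding bases 316 to 390 of Csf2rb and 319 to 393 of Csf2rb2 in GENCODE M21, and capitals mark the 14 bases that differ. It is shown because counts that tell the genes apart rest on stretches of this kind.
Csf2rb: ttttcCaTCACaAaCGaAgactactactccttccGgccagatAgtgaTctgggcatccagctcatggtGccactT
Csf2rb2: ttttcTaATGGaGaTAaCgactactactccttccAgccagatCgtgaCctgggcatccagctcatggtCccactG

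Both beta chains rose in knock-in hematopoietic cells. Csf2rb had 237, 268, 225, 240, 164 and 294 CPM in knock-in libraries (replicates 1 to 6), against 110, 157, 132, 106, 110 and 136 CPM in wild type libraries. All 6 knock-in libraries stood above all 6 wild type libraries, a separation that 7.83% of tested genes showed. Csf2rb was 1.93-fold higher (log2 0.95, SE 0.14, edgeR adjusted p = 0.000574). Within the file sets the log2 fold change was 0.91 (adjusted p = 0.0132) in the first and 1.00 (0.0771) in the second.

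Csf2rb2 had 99.9, 104, 79.8, 86.1, 44.1 and 141 CPM in knock-in libraries, against 29.6, 41.7, 42.2, 27.5, 34.3 and 57.0 CPM in wild type libraries. Only knock-in replicate 5 fell within the wild type range, and it was also the lowest knock-in library for Csf2rb. Csf2rb2 was 2.41-fold higher (log2 1.27, SE 0.26, edgeR adjusted p = 0.00605, 6 of 6 above the wild type mean). Within the file sets it was 1.36 (adjusted p = 0.00727) in the first and 1.198 (0.258) in the second. With Il34 these made 3 of 7 tested members called in hematopoietic cells, all higher, where 15.9% of 14030 genes were called, 9.01% higher and 6.89% lower. Of these members Il34 entered the test mainly through its knock-in libraries. The members' median log2 fold change was 0.24, against a median near 0.00 over all genes.

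**Figure D3:**
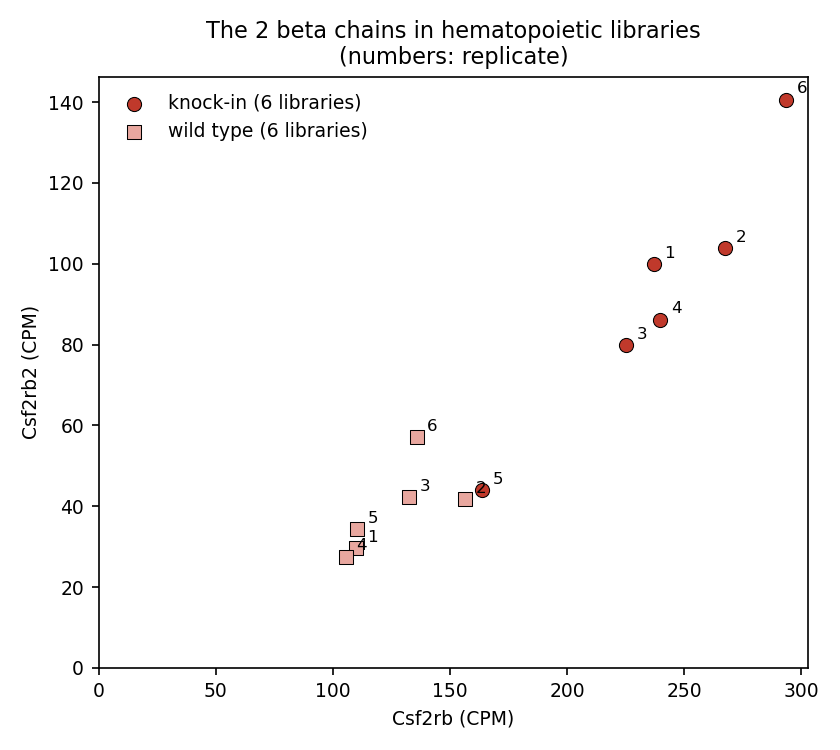
Csf2rb against Csf2rb2 in CPM in hematopoietic libraries, KI circles and WT squares, each with its replicate number. All 6 KI libraries exceed the WT libraries in Csf2rb, and KI replicate 5 lies beside WT replicate 2.

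The balance between the beta chains did not pass the test. Csf2rb made up 72.7% ± 3.77 of the counts of the pair in knock-in and 76.6% ± 3.37 in wild type hematopoietic libraries (SD, n = 6 each), a difference of -3.91 percentage points (two-sided exact permutation p = 0.0887, 0.133 adjusted over 3 shares). Without knock-in replicate 5 the difference was -5.13 (p = 0.026, exact permutation), and without wild type replicate 6 it was -5.15 (p = 0.026, exact permutation). It was -5.79 in the first file set and -2.03 in the second (exact permutation p = 0.1 and 0.6, where 3 against 3 cannot go under 0.1). Reads that the 2 genes share could shift this share, and their part was not tested.

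Most osteoclast marker genes were also higher in knock-in hematopoietic cells. The 10 markers summed to 2148 to 5129 CPM in knock-in and 810 to 2083 CPM in wild type hematopoietic libraries, and 8 of 10 rose. The macrophage markers went another way by count, with 1 of 13 tested higher and 6 lower, though their sums overlapped at 15888 to 23737 CPM in knock-in and 12970 to 20291 CPM in wild type libraries. Of the 12 general leukocyte markers 1 rose and 5 fell, and no granulocyte marker of 11 tested was called. Among all genes tested in these cells 9.01% rose and 6.89% fell. The part of these markers' cells in the rise of Csf2rb and Csf2rb2 was not tested. Leaving out replicate 3 of both genotypes, the libraries with the highest stromal marker shares, gave 0.98 (adjusted p = 0.00325) for Csf2rb and 1.34 (0.0205) for Csf2rb2. In that fit Il34 fell under the filter on low counts, so its rise could not be tested without those libraries.

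**Figure D4:**
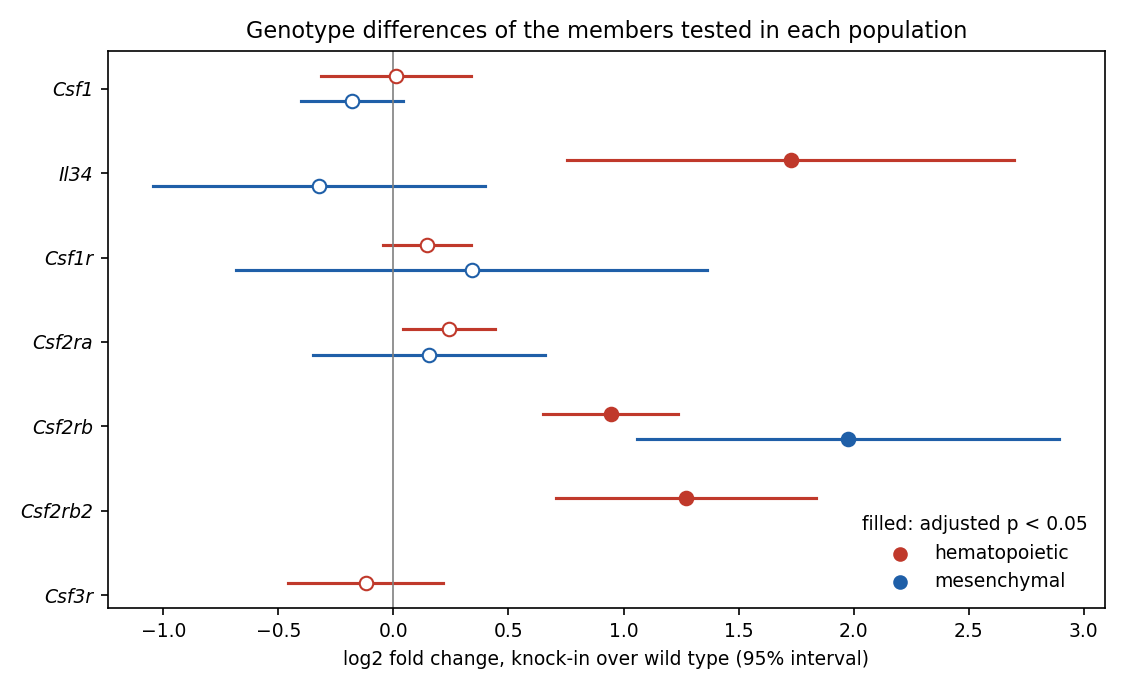
Log2 fold change of knock-in over wild type for each member tested, with its 95% interval, in hematopoietic (red) and mesenchymal (blue) libraries, 6 per group, filled where the adjusted p was under 0.05. Il34, Csf2rb and Csf2rb2 are filled in hematopoietic cells and Csf2rb in mesenchymal cells.

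In mesenchymal cells Csf2rb was the only member called of 5 tested, where 7.27% of 13867 genes were called (3.44% higher, 3.83% lower). The knock-in libraries had 15, 18, 26, 26, 38 and 11 counts, which is 0.802 to 2.52 CPM with a median of 1.63. The wild type libraries had 9, 2, 6, 11, 2 and 5 counts, which is 0.134 to 0.766 CPM with a median of 0.393. Most of these wild type libraries lay under the filter's minimum count of 10, so Csf2rb entered the test through its knock-in libraries. Beside the share of all genes its call is therefore only a description. The groups did not overlap in CPM, as for 4.13% of tested genes, and the fold change was 3.93 (log2 1.98, SE 0.43, edgeR adjusted p = 0.0132). Within the file sets the log2 fold change was 1.89 (adjusted p = 0.116) and 2.05 (0.243).

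The carry-over level of Csf2rb was a mean of 1.21 CPM in knock-in and 0.516 CPM in wild type mesenchymal libraries, against observed means of 1.65 CPM in knock-in and 0.416 CPM in wild type libraries. Csf2rb was above the carry-over level in 5 of 6 knock-in and 3 of 6 wild type libraries. Osteoclast markers summed to 198 to 404 CPM in knock-in and 174 to 342 CPM in wild type mesenchymal libraries. Of these markers 2 of 5 tested were higher, where 3.44% of all tested genes were. Their part in the Csf2rb result was not tested. After subtraction of the carry-over level the gene had too few counts left in mesenchymal libraries to be tested. The difference between the genotype effects in the 2 populations did not pass (interaction log2 1.05, SE 0.39, edgeR adjusted p = 0.113), though without knock-in mesenchymal replicate 6 it did (1.22, adjusted p = 0.0484).

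Csf2rb2 in mesenchymal libraries fell under the filter on low counts, with 3 to 20 counts in knock-in and 0 to 7 counts in wild type libraries. Its carry-over level was 0.470 CPM in knock-in and 0.160 CPM in wild type libraries, against observed means of 0.610 CPM in knock-in and 0.219 CPM in wild type libraries. The partners of the beta chains were few. Of interleukin-3, interleukin-5 and their alpha chains only Il3ra passed the filter. It averaged 10.1 ± 1.19 CPM in knock-in and 9.25 ± 1.35 CPM in wild type hematopoietic libraries (SD, n = 6 each) and was not called in either population.

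Csf3r (ENSMUSG00000028859, chr4:126024550-126044440, plus strand) encodes the G-CSF receptor, and in hematopoietic cells it did not pass the test between genotypes. It ran from 36.4 to 68.5 CPM in knock-in libraries (median 58.2) and from 42.4 to 76.6 CPM in wild type libraries (median 63.1). The log2 fold change was -0.12 (95% interval -0.46 to 0.22, edgeR adjusted p = 0.672), with a sign that turns in the second file set alone (0.17). Granulocyte markers, which mark the cells best known for this receptor, summed to 48.5 to 107 CPM in knock-in and 43.3 to 163 CPM in wild type hematopoietic libraries. In mesenchymal libraries it had 1 to 6 counts in knock-in and 0 to 9 in wild type cells and was not tested.

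In order of level per kilobase, hematopoietic knock-in libraries had Csf1r, Csf2rb (32.7), Csf2ra (31.8), Csf2rb2 (19.5), Csf3r (15.5), Csf1 (8.31) and Il34 (0.688). Each neighbour from Csf2rb down to Csf1 overlapped the next. Wild type hematopoietic libraries had Csf1r, Csf2ra (27.3), Csf2rb (17.2), Csf3r (17.04), Csf1 (8.42), Csf2rb2 (8.17) and Il34 (0.206). Csf2rb had the higher mean of the pair Csf2rb and Csf2ra in the knock-in and Csf2ra in wild type libraries, and these neighbours overlapped in both genotypes.

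Promoter windows of RefSeq (GRCm38.p6), 250 bases before to 50 after the start, were available for 5 of the 9 members. That of Csf2, chr11:54249850-54250149 on the minus strand, lies wholly before the counted gene model, which starts at 54249667. The bases next to that start were therefore not searched for any motif. PU.1, the ETS factor of the myeloid lineage encoded by Spi1, binds sites with the core GAGGAA, which was searched on both strands. It occurred 2 times in Csf2rb2, 2 times in Csf2ra, 1 time in Csf3r and 0 times in Csf1 and Csf2, and 28.3% of 32851 windows held it. Spi1 averaged 255 ± 27.5 CPM in knock-in and 226 ± 15.4 CPM in wild type hematopoietic libraries (SD, n = 6 each). The STAT motif TTCNNNGAA occurred 1 time in Csf2rb2 and in 8.30% of windows, and in none of the other 4 members' windows. None of the 5 windows held the AP-1 motif TGANTCA, found in 7.81% of windows. An NF-kB motif was found 1 time, on the minus strand of the Csf1 window from -154 to -145 relative to the start, in none of the other 4 windows and in 4.79% of all windows. The windows of a receptor chain that rose, of a receptor that did not pass between genotypes and of the stromal ligand follow, since they set receptor and ligand promoters side by side, with only the PU.1 core in capitals (as TTCCTC where it lies on the other strand).
Csf2rb2, chr15:78305672-78305971, minus strand: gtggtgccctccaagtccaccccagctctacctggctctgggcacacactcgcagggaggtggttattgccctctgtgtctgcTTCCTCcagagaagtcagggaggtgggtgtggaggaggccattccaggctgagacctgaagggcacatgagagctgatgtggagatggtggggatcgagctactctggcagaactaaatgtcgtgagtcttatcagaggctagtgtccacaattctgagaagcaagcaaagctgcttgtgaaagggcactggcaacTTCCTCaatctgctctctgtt
Csf3r, chr4:126024409-126024708, plus strand: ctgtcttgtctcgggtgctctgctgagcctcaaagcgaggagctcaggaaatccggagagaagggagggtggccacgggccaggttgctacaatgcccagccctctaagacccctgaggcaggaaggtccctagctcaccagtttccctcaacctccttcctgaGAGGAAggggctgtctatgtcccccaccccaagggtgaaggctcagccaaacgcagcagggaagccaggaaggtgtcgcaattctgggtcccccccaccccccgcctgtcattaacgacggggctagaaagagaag
Csf1, chr3:107760420-107760719, minus strand: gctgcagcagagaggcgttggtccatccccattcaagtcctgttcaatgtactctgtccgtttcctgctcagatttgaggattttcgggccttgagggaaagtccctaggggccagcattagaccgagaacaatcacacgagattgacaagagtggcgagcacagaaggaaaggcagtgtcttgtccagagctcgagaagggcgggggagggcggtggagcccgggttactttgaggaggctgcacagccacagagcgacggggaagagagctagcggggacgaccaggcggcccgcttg

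Downstream of CSF1R, 17 of the 25 listed signalling genes did not pass between genotypes in hematopoietic cells. There 4 rose and 4 fell, where 15.9% of all tested genes were called (9.01% higher, 6.89% lower). The list's median log2 fold change was -0.12. Src, a kinase that osteoclasts need for bone resorption, averaged 128 ± 29.9 CPM in knock-in and 18.7 ± 8.60 CPM in wild type libraries (SD, n = 6 each, log2 fold change 2.81, edgeR adjusted p = 0.000123). Fgr, another kinase of that family, averaged 95.5 ± 38.6 CPM in knock-in and 22.8 ± 6.47 CPM in wild type libraries (SD, n = 6 each, log2 fold change 2.08, edgeR adjusted p = 0.000477). Ctnnb1 and Syk rose as well, while Pik3r1, the regulatory subunit of PI3 kinase, fell (-0.42, edgeR adjusted p = 0.00293) with Pik3cd, Fyn and Lyn.

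In mesenchymal cells 3 of 22 tested genes of that list rose and 0 fell by edgeR's test. Over all genes 7.27% were called there, 3.44% higher and 3.83% lower. The list's median was near that of all genes, 0.00. Fyn averaged 319 ± 90.0 CPM in knock-in and 173 ± 51.8 CPM in wild type libraries (SD, n = 6 each, log2 fold change 0.88, edgeR adjusted p = 0.0148). Src (0.43) and Cbl (0.25), a ubiquitin ligase that marks CSF1R for degradation, rose as well. The Src response differed between populations (interaction log2 -2.36, edgeR adjusted p = 4.45e-05). Of the 25 genes, 4 passed the interaction with higher values (Fyn, Sos1, Cbl, Pik3cd) and 3 with lower values (Src, Ctnnb1, Cblb). Over all genes 2.92% passed higher and 4.36% lower.

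In the JAK and STAT arm, which carries GM-CSF and G-CSF signals, 3 of 16 genes rose and 1 fell in hematopoietic cells. The list median was -0.01, and over all genes 9.01% rose and 6.89% fell there. Cish, a feedback inhibitor that STAT5 induces, averaged 1.79 ± 0.345 CPM in knock-in and 0.709 ± 0.383 CPM in wild type libraries (SD, n = 6 each, log2 fold change 1.41, edgeR adjusted p = 0.00981). Socs3, the feedback inhibitor of the G-CSF receptor, averaged 36.7 ± 16.5 CPM in knock-in and 16.2 ± 6.87 CPM in wild type libraries (SD, n = 6 each), close to the threshold (log2 fold change 1.19, edgeR adjusted p = 0.0497). The survival genes of the list split, with Mcl1 up (0.53) and Bcl2l1 down (-1.16, edgeR adjusted p = 0.000531). In mesenchymal cells 2 of 16 genes fell, Stat5a (-0.52) and Shc1 (-0.32), with a list median of -0.11, where 3.83% of all genes fell.

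Other proteins described as interleukin-34 receptors are the proteoglycan syndecan-1 (Sdc1), the phosphatase PTPRZ1 and TREM2. Sdc1 averaged 159 ± 56.6 CPM in knock-in and 24.2 ± 8.06 CPM in wild type hematopoietic libraries (SD, n = 6 each, log2 fold change 2.78, edgeR adjusted p = 5.51e-05). Its groups did not overlap, as for 7.83% of tested genes. Trem2 fell there, at 153 ± 13.5 CPM in knock-in and 202 ± 26.8 CPM in wild type libraries (SD, n = 6 each, log2 fold change -0.38, edgeR adjusted p = 0.0127). In mesenchymal cells Sdc1 (0.50) and Ptprz1 (1.00) rose.

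Among the listed myeloid transcription factors Cebpb (0.60) rose in hematopoietic cells. Bhlhe40, which is known to be needed for the self-renewal of some tissue macrophages, rose by 1.30 on the log2 scale there, and Maf fell to 398 ± 67.8 CPM in knock-in, against 718 ± 84.4 CPM in wild type libraries (SD, n = 6 each, log2 fold change -0.85, edgeR adjusted p = 0.000146). In mesenchymal cells Cebpa fell to 9.68 ± 2.02 CPM in knock-in, against 28.5 ± 10.3 CPM in wild type libraries (SD, n = 6 each, log2 fold change -1.50, edgeR adjusted p = 0.000537), and Maf fell by 0.42 on the log2 scale. These were 2 of 11 tested, with a list median of -0.27, where 3.83% of all genes fell.

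Cytokines and NF-kB genes known to induce Csf1 and Csf2 in stroma were the last list. In mesenchymal cells 1 of 7 tested was called (list median 0.05), the interleukin-1 receptor Il1r1 (0.40, edgeR adjusted p = 0.0416). Over all genes 7.27% were called there, 3.44% higher. In hematopoietic cells 4 of 9 rose and 0 fell by edgeR's test (list median 0.28), where over all genes 9.01% rose and 6.89% fell. Nfkb2 averaged 102 ± 20.5 CPM in knock-in and 59.7 ± 5.43 CPM in wild type libraries (SD, n = 6 each, log2 fold change 0.78, edgeR adjusted p = 0.00121), and Relb (0.79), Il1r1 (0.96) and Il1b (0.74) rose as well. Tnf averaged 22.6 ± 11.6 CPM in knock-in and 22.5 ± 6.66 CPM in wild type hematopoietic libraries (SD, n = 6 each) and was not called.

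**Figure D5:**
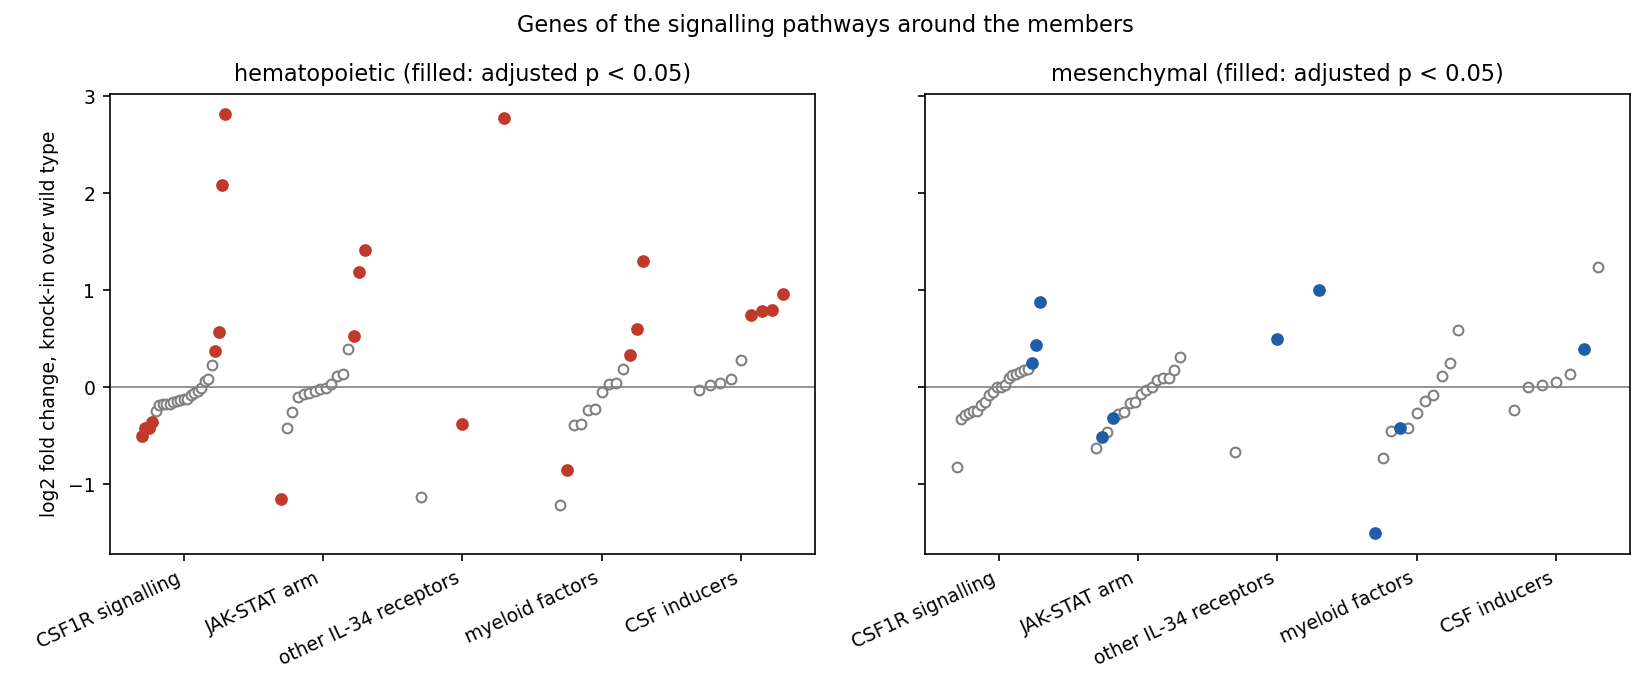
Log2 fold change of knock-in over wild type for the tested genes of 5 lists around the members, in hematopoietic (left) and mesenchymal (right) libraries, 1 point per gene, filled where the adjusted p was under 0.05. The CSF1R signalling list holds 4 genes that rose and 4 that fell in hematopoietic cells, and 3 that rose in mesenchymal cells. Over all tested genes 15.9% were called in hematopoietic and 7.27% in mesenchymal cells.

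The genes whose log2 CPM followed a member most closely over the 12 libraries of a population are given as a description. Libraries of both genotypes and both file sets enter, and genes share the differences between them. For Csf2rb in hematopoietic libraries they were Rnf149 (Pearson r 0.976), the hyaluronan receptor Cd44 (0.974) and Myof (0.970), among 8669 genes averaging at least 10 CPM. For Csf1r there they were Osbpl2 (0.894), Bsdc1 (0.862) and Cog8 (0.861), and for Csf3r Pcmtd1 (0.911), Ppp1r12a (0.896) and Lrrc41 (0.890). For Csf1 in mesenchymal libraries they were the AP-1 subunit Fosl1 (0.917), Dynll2 (0.870) and H2afx (0.854), among 8611 genes. Csf1 itself differed there by file set. Wild type libraries had 578, 686 and 675 CPM in the first set and 483, 511 and 515 CPM in the second. Knock-in libraries had 505, 566 and 640 CPM in the first and 330, 485 and 504 CPM in the second. These correlations hold no set term, and the part of the file sets in them was not tested.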

How the data were processed

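The authors deposited 1 raw, whole-number count per gene for each of the 24 libraries. The labels' protocols describe stranded paired-end libraries from RNA depleted of ribosomal RNA. GRCm38 (mm10), HTSeq 0.9.1, DESeq2 1.20.0, MultiQC and FastQC 0.11.7 are named in the submitters' processing notes. No source used here gives the strand setting of the counting, and genes that overlap or are nearly identical carry that doubt.

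From these counts edgeR 4.0.16 (R 4.3.3; filterByExpr, minimum count 10 and total 15; TMM) ran a robust quasi-likelihood test with Benjamini-Hochberg adjustment over all tested genes and a threshold of 0.05. Genotypes were compared in the 12 libraries of a population, and populations and the interaction in all 24. A term held the 2 sets that a digit in the deposited file names marks, which no label explains, with 3 libraries per group in each. Replicate pairs of a group differed beyond counting noise (chi-square per degree of freedom 6.73 to 58.8 over 60 pairs), so none was merged. Symbols, exon lengths and coding sequences came from GENCODE M21, and Biopython 1.88 aligned the coding pair.

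Carried-over RNA was estimated as the median, over the other population's markers averaging 10 CPM or more there, of their level relative to that population. The fit was also run on simulated counts with known changes. Those counts held no file set effect and no carried-over RNA that varied between libraries, so the run does not check how the fit handles either. Named genes are the 9 members, up to 4 called genes per list and comparison by adjusted p (others of a list are named without values), and the 3 closest genes per member. A result of the transcription factor list in hematopoietic cells, and that list's count there, are not reported here. Il3ra, Spi1 and Tnf were chosen after their values were seen. Members and lists were chosen with earlier results of these data known. Alternatives were DESeq2 1.42.0 (its test and its size factors), no filter, no set term, a replicate block, each set alone, subtraction of the other population's RNA, other groups in the fit, ligand shares from counts and not per kilobase, limma 3.58.1 voom for the interaction, and each library left out. A fit without hematopoietic replicate 3 of both genotypes was added after seeing the data.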

Additional observations from a re-analysis of the deposited data

Results flagged for a closer look

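In hematopoietic libraries 1 knock-in library stood apart for Il34, replicate 2 at 3.21 CPM, where the other knock-in libraries lay between 0.666 and 1.45 CPM. For the same gene 1 wild type library stood apart, replicate 3 at 0.851 CPM, where the others lay between 0.211 and 0.396 CPM. It had the highest stromal marker share of its group, 20.8%, whose part was not tested. The Csf1 share of CSF1R ligand RNA was 83.5% in knock-in hematopoietic replicate 2, the library high in Il34, where the other knock-in libraries lay between 91.5% and 96.0%. Of 34 sets of 6 libraries examined 3 held such a library, and chance flags about 1 set in 20. The genotype effect on Il34 differed between populations by -2.04 on the log2 scale (edgeR interaction, adjusted p = 0.0289), with opposite directions, -0.32 in mesenchymal and 1.73 in hematopoietic cells, of which the mesenchymal value did not pass.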

How the results depend on the processing

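The rises of Csf2rb and Csf2rb2 in hematopoietic cells kept their direction under all 22 alternatives and stayed called under 21 each, with log2 fold changes of 0.86 to 1.04 for Csf2rb and 1.08 to 1.45 for Csf2rb2, and both were lost in the second file set alone. Csf2rb in mesenchymal cells kept its direction under 20 alternatives (1.77 to 2.28) and its call under 18. All 5 receptor chains and Csf1 stayed called between populations under all 33 alternatives in both genotypes. File sets alone, with 3 libraries per group, gave 672 and 218 genes called in hematopoietic cells (2231 with both), 391 and 76 in mesenchymal cells (1008) and 180 and 138 for the interaction (1121). The second set alone called 0 members in hematopoietic cells, and each set alone called 0 in mesenchymal cells and 0 for the interaction. The Csf1 share of the hematopoietic ligands differed by -6.20 and -4.39 percentage points in the sets alone (exact permutation p = 0.1 each, the smallest 3 against 3 allow), and in mesenchymal cells by 0.388 in the first set and -0.17 in the second. From counts, not per kilobase, the hematopoietic difference was -2.15. DESeq2's test called 1664 genes in mesenchymal cells and 2 members for the interaction, adding Csf2rb. Subtracting the other population's RNA left 0 members called in mesenchymal cells, with 4 testable, left Csf1 and Il34 not testable in hematopoietic cells, and gave Csf2rb an interaction of 3.02 (adjusted p = 0.0718). Leaving out 1 library gave 1745 to 2206 genes and 2 to 4 members in hematopoietic cells, 646 (without knock-in replicate 1) to 1036 genes and 1 member in mesenchymal cells, 11078 to 11406 genes and 6 to 7 members between knock-in populations, 11135 to 11476 genes and 7 members between wild type populations, and 937 to 1166 genes and 0 to 2 members for the interaction. It moved the Csf1 share difference over -6.07 to -3.57 in hematopoietic and -0.0684 to 0.331 percentage points in mesenchymal cells, and the Csf2rb share difference over -5.15 to -2.89.

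Member values that did not pass the threshold changed sign in places. Csf1 in hematopoietic cells was -0.0024 without the set term, -0.014 with a replicate block, -0.019 in the first set, -0.0079 in 1 fit of all libraries and -0.109 to 0.0913 with 1 library left out. Csf3r there was 0.17 in the second set. For the interaction Csf1r was -0.015 after subtraction, -0.15 by voom and -0.0389 to 0.455 with 1 library left out. Csf2ra was 0.066 in the first set and -0.177 to 0.0983 with 1 library left out. Csf2rb2 was -0.043 in the second set, -0.33 after subtraction and -0.243 to 0.528 with 1 library left out, and Csf3r was 0.051 by voom. The cause was not tested. Replicate numbers are not labelled as a shared mouse or batch. Deviations from group means of same-numbered libraries correlated at 0.0851 to 0.522 in hematopoietic and -0.0459 to 0.419 in mesenchymal cells, with 3 and 2 of 6 libraries closest to their own number. Centred on group and file set they correlated at 0.105 to 0.479, above 0.1 in all 6 hematopoietic pairs (4 of 6 closest to their own number), and at 0.0158 to 0.438 in mesenchymal cells (2 of 6). The numbers were not taken to pair libraries, although in hematopoietic cells this turns on the centring. A replicate block gave 3315 genes called in hematopoietic and 1258 in mesenchymal cells and 1331 for the interaction. It added 1 member call, Csf2ra in hematopoietic cells (0.25, adjusted p = 0.0456), and changed no other. Depth limits Il34, mesenchymal Csf2rb and the members listed at a few counts.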
